A study of Mus musculus with 6 samples.

Results

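Proteasome gene expression was compared between wild-type (WT) and miR-22 knockout (KO) mice in brown adipose tissue (BAT). They were taken as every gene whose symbol starts with Psma, Psmb, Psmc, Psmd or Psme, or is Psmf1 or Psmg with a number. In the RefSeq annotation of GRCm38.p6, 57 genes fit this rule: 49 code for subunits, activators, assembly chaperones or the inhibitor, 6 are pseudogenes, and 2, Psmc3ip and Psme3ip1, code for other proteins with matching symbols. The array carried 76 probes for 50 of the 57 genes. Total RNA came from whole BAT of 3 mice of each genotype, all male and, per the study's methods, 8 weeks old. The KO mice carried a constitutive deletion of miR-22, so every cell type of the tissue lacked it. Each mouse was hybridised to 1 array of 1 slide, with 1 dye.

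The proteasome is the large protease that degrades proteins tagged with ubiquitin. Its 20S core is a barrel of alpha rings, which gate the entrance, and beta rings, which hold the active sites. A 19S cap binds, unfolds and feeds the substrate, with ATPases in its base and a deubiquitinase in its lid, while PA28 and PA200 are alternative activators. Interferon gamma induces Psmb8, Psmb9 and Psmb10, which replace the constitutive catalytic subunits Psmb5, Psmb6 and Psmb7 and so form the immunoproteasome, a source of peptides for MHC class I. In brown adipocytes, the transcription factor Nfe2l1 is known to keep proteasome genes expressed, and proteasome activity is needed for thermogenesis in the cold.

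The miRNA removed in the KO mice is shown first, because it is the only designed difference between the groups. RefSeq places its main strand on chromosome 11 of GRCm38.p6, from 75463772 to 75463793 on the plus strand. The seed, bases 2 to 8, is in capitals.
mmu-miR-22-3p: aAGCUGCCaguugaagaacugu
The arrays did not measure the mature miRNA. The probe of its host transcript, Mir22hg, read 1.20, 1.69 and 1.22 in WT 1 to WT 3 and 2.02, 2.11 and 2.23 in KO 1 to KO 3 on the scaled log2 scale explained below. It was higher in KO by 0.75 ± 0.18 on the log2 scale (SE, limma unadjusted p = 0.00383, adjusted p = 0.108). Where this probe lies relative to the deleted stretch was not given in the sources used here, so it does not check the labels. Among the tested proteasome genes, 6 lie on chromosome 11, the nearest being Psmb6 at 4.94 Mb from the hairpin. Their median log2 difference was -0.26, against -0.24 for the 30 tested elsewhere.

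Constitutive and inducible catalytic subunits are compared below, so the 250 bases before the start of one gene pair are printed, with letters that fit 3 searched motifs in capitals. The antioxidant response element, the kind of site Nfe2l1 binds, was searched as TGACNNNGC, the interferon-stimulated response element as GAAA, any 2 bases and GAAA again, and the gamma-activated site as TTCNNNGAA, each on both strands. Psmb5 and Psmb6 held the first motif, Psmb8 held the third, and the 250 bases before Psmb9 and Psmb10 held none of these letters. Psmb7 was not searched.
Psmb5, chr14:54617996-54618245, minus strand: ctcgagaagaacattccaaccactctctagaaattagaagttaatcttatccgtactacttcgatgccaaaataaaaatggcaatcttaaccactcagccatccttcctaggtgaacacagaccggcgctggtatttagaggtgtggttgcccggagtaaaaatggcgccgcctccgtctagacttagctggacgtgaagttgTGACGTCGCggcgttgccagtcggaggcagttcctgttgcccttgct
Psmb8, chr17:34197945-34198194, plus strand: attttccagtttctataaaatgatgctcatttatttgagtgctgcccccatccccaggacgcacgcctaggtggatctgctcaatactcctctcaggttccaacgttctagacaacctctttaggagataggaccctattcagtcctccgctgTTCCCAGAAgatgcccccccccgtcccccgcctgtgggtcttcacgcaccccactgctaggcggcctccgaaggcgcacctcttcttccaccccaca
These are RefSeq sequences of GRCm38.p6. Over windows of the same length, from 250 bases before to 50 after each start, the first motif was in 12.8% of 47 promoters of 43 proteasome genes and in 12.4% of all 32851 promoters. The second was in 10.6% against 3.44% and the third in 6.38% against 8.30%. A match of these letters is a description of the sequence and not a binding site.

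All levels below are the scanner's processed signal divided by the array's 75th percentile, as log2, so that 0 is the level of that percentile. Each gene is read through its brightest testable probe, and levels of different probes are not set against each other. Of the 57 genes, 36 were tested with limma. Another 12 had probes well above background but too few unmarked spots: Psma3, Psma6, Psmb1, Psmb5, Psmc3ip, Psmc5, Psmc6, Psmd5, Psmd8, Psmd12, Psme2b and Psmg2. The scanner software marks a spot when its pixels are uneven or when it stands apart from its repeats. On WT 3 it marked 61.6% of the 73 detected probes of proteasome genes and on KO 1 52.1%, against 15.1% to 19.2% on the other 4 arrays. Over all non-control spots the shares were 17.1% and 15.1%, against 4.87% to 6.12%. The values with marked spots kept, which cover 48 genes with 3 arrays in each group, are therefore given beside those without. Psma8, the testis form of an alpha subunit, and Psmb11, the catalytic subunit of the thymus, were not well above background on at least 3 of 6 arrays. No probe matched Psme2, which codes for PA28 beta, or the pseudogenes Psma5-ps, Psmb5-ps, Psmb6-ps, Psmb6-ps2, Psmb7-ps1 and Psmb7-ps2.

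Several features of the whole series touch these results. The summed scaled signal of 10 brown adipocyte markers ranged from 7.61 to 7.96 in WT and from 7.15 to 7.67 in KO on the log2 scale, so the tissue carried its defining transcripts. Of these markers 3 were tested and only 1, Cox7a1, was below 0 and called lower (-0.78). With marked spots kept, 7 of the 10 were below 0, with a median of -0.39. Ppargc1a was then called lower (-0.59) and Cox7a1 was not (-0.5, limma unadjusted p = 0.0791). In that setting 85.4% of the proteasome genes were below 0, as were 55.9% of all genes and 86.8% of genes about as bright as the proteasome genes. The summed signal of 20 skeletal muscle markers ranged from 4.37 to 7.45 in WT and from 5.52 to 8.13 in KO, lowest in WT 3. For 11 measured T and NK cell markers it was -0.16 to 0.76 in WT and 0.76 to 1 in KO, with 3 of 11 higher in KO at an unadjusted p under 0.05, where 10% of all genes were. These 11 genes are dim, and the median log2 differences of all genes in the dimmest quintiles of signal were 0.17 and 0.14. Of 14 macrophage and myeloid markers, 13 were tested and 3 were higher in KO, with summed signals of 5.71 to 5.85 in WT and 5.66 to 5.93 in KO. The white adipocyte markers Mest and Nnat, 2 of 7 tested, were higher in KO, while Hoxc8 was the 1 below 0 (-0.47). With marked spots kept, Hoxc8 was called lower (-0.51, limma unadjusted p = 0.0183). None of the tested B cell, endothelial or erythroid markers was called. The part of these cells in the results below was not tested. In tissue RNA, fewer cells of a type and less RNA per cell cannot be told apart. WT 1 and WT 2 lay in the first row of the slide and the other 4 arrays in the second, so values within the second row compare the KO mice with WT 3 alone.

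Of the 36 tested proteasome genes, 30 had a lower mean in KO than in WT, with a median log2 difference of -0.24, a range from -0.49 to 0.61 and no gene past the adjusted threshold. At an unadjusted p under 0.05, the threshold of the study's methods, Psmb6 and Psmd13 fell and none rose. These were 5.56% called lower, against 8.82% of all 14711 tested genes, and 0% higher, against 10%. Over all genes 0.184% passed the adjusted threshold. The median of all genes was -0.03. With marked spots kept, 41 of 48 were below 0, the median was -0.23, 5 fell (10.4%, against 11.1% of 16110 genes) and none rose (against 9.47%). These 5 were Psmb5, Psmb7, Psmd9, Psmd13 and Psme2b. In both cases the share called lower was near that of all genes. Without WT 2, WT 3, KO 1 or KO 2, no member was called lower with marked spots kept. Without WT 1 there were 8, and without KO 3 there were 9, where Psmd9 was not among them. With marked spots left out, 3 of 26 tested members were called lower without KO 3. There, 24.9% of genes about as bright and 10.3% of all genes were called lower too. Without WT 1 it was 2 of 22 members, against 14.9% and 7.75%. With marked spots kept and an array left out, such shares are not given. The counts of 8 and 9 therefore cannot be compared with other genes, and no result about the proteasome genes is drawn from them. The differences of Psmb5, Psmb7 and Psme2b stayed about as large without WT 3 (-0.46, -0.41 and -0.43) and without KO 1 (-0.45, -0.43 and -0.42), and were smaller without WT 2 (-0.30, -0.32 and -0.33) and without KO 2 (-0.36, -0.33 and -0.32).

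Psmd13, a subunit of the 19S lid, read 2.43, 2.74 and 2.58 in WT 1 to WT 3 and 2.15, 2.12 and 2.34 in KO 1 to KO 3. The 3 KO values lay below the 3 WT values. The means were 2.58 ± 0.15 in WT and 2.2 ± 0.12 in KO (SD, n = 3 each), a difference of -0.38 ± 0.15 (SE, limma unadjusted p = 0.0361, adjusted p = 0.235), or 0.769 of the WT level. The p passed the threshold no longer without WT 2, WT 3, KO 1 or KO 2, where the differences were -0.30, -0.38, -0.35 and -0.33, nor under quantile normalization, where the difference was -0.23.

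Psmb6, the constitutive subunit with caspase-like activity, lies on chromosome 11 from 70525324 to 70527858. It read 4.61 and 4.27 in WT 2 and WT 3 and 3.89, 3.80 and 4.17 in KO 1 to KO 3, with the WT 1 spot marked at 4.16. The unmarked KO values lay below the unmarked WT values, while KO 3 was level with the marked WT 1. The difference was -0.49 ± 0.20 (SE, limma unadjusted p = 0.04996, adjusted p = 0.265), and with the marked spot kept it was -0.39, with a limma unadjusted p of 0.0605. A second probe of Psmb6 gave -0.13, and the mean of both probes gave -0.31 with the call lost. With the arrays left out in turn, the p stayed under the threshold only without KO 3. The difference was -0.49 without WT 1, whose spot was already left out, -0.46 without KO 1 and -0.41 without KO 2. Without WT 2 or WT 3 the brightest testable probe was another one, and the differences were 0.03 and -0.27.

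**Figure D1:**
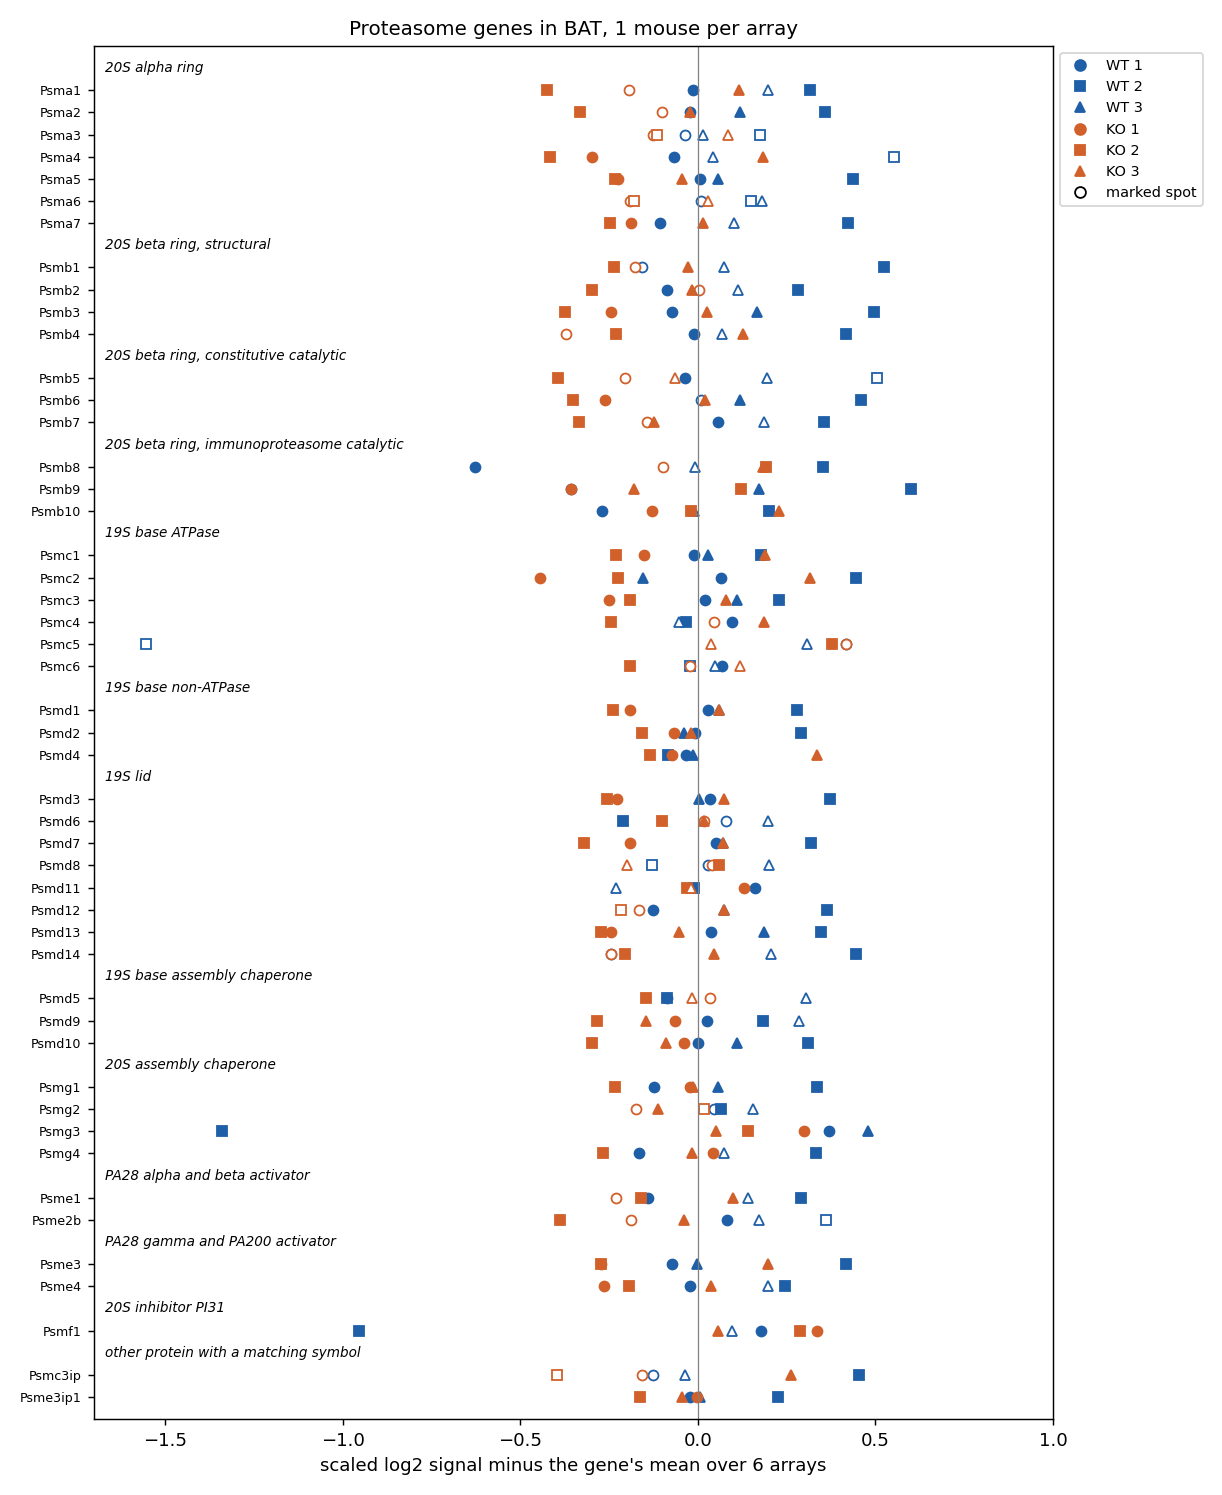
Scaled log2 signal of 48 proteasome genes on each of the 6 arrays, drawn as the deviation from the gene's own mean over the arrays and grouped by role. Blue symbols are WT mice, orange symbols KO mice, and open symbols marked spots. WT 2 is the highest array for 33 of the 48 genes and KO 2 the lowest for 30, while WT 2 lies far to the left for Psmc5, Psmg3 and Psmf1.

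In the alpha ring, 5 of 5 tested subunits were below 0, with differences from -0.44 to -0.30 and none past the threshold. Psma5, the tested alpha subunit without a marked spot, read 3.63, 4.06 and 3.68 in WT and 3.40, 3.39 and 3.58 in KO, without overlap. Its difference was -0.33 ± 0.16 (SE, limma unadjusted p = 0.0821, adjusted p = 0.323). The structural beta subunits Psmb2, Psmb3 and Psmb4 differed by -0.25 to -0.39. All 14 constitutive 20S subunits were below 0 with marked spots kept, with a median of -0.32, and 11 of 14 with quantile normalization as well, with a median of -0.06.

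In the 19S cap, 11 of 13 tested subunits were below 0, with a median of -0.16 and a range from -0.38 to 0.09. The ATPases Psmc1, Psmc2, Psmc3 and Psmc4, which unfold the substrate, differed by -0.24 to -0.06. Psmd4, a ubiquitin receptor, was above 0 at 0.09 ± 0.16 (SE, limma unadjusted p = 0.599). It read 3.86, 3.81 and 3.88 in WT and 3.82, 3.76 and 4.23 in KO. Psmd14, the deubiquitinase of the lid, differed by 0.03 through its testable probe and by -0.27 through a brighter probe with marked spots kept. Of 9 tested genes with more than 1 testable probe, 3 had probes on both sides of 0: Psmc3, Psmd3 and Psmd4.

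Psmd9, an assembly chaperone of the 19S base, read 0.72, 0.88 and 0.98 in WT, the last marked, and 0.63, 0.41 and 0.55 in KO. It fell by 0.33 ± 0.14 on the log2 scale with the marked spot kept (SE, limma unadjusted p = 0.04901, adjusted p = 0.241), and the difference was -0.27 without it. The other chaperones of the base, Psmd5 and Psmd10, differed by -0.09 and -0.29 with marked spots kept. Among the 20S chaperones, Psmg1, Psmg2 and Psmg4 lay between -0.18 and -0.16.

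For 3 genes with a higher mean in KO, WT 2 alone read low, whereas it was the highest array for most members. Psmg3, a 20S chaperone, read 1.56, -0.15 and 1.67 in WT and 1.49, 1.33 and 1.24 in KO. Psmf1, the proteasome inhibitor PI31, read 0.04, -1.09 and -0.04 in WT and 0.20, 0.15 and -0.08 in KO. Its difference was 0.61 ± 0.34 (SE, limma unadjusted p = 0.122, adjusted p = 0.382), and a dimmer probe gave 0.18. Psmc5, an ATPase of the base, read 3.06, 1.09 and 2.95 in WT and 3.06, 3.02 and 2.68 in KO with marked spots kept. On WT 2, 90 of 16110 genes lay over 1 log2 unit below the lowest of the other 5 arrays, against 15 to 115 genes on the other arrays.

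The activators were described in the same way. Psme1, which codes for PA28 alpha, read 3.64, 4.07 and 3.92 in WT and 3.55, 3.62 and 3.88 in KO, with the spots of WT 3 and KO 1 marked, and the groups overlapped. Its difference was -0.11 ± 0.23 (SE, limma unadjusted p = 0.664), or -0.19 with marked spots kept. The brightest probe annotated to Psme2b read 4.24, 4.52 and 4.33 in WT and 3.97, 3.77 and 4.12 in KO with marked spots kept, and all KO values lay below all WT values. It fell by 0.41 ± 0.15 on the log2 scale (SE, limma unadjusted p = 0.03159, adjusted p = 0.206). Psme2b is a near-identical copy of Psme2 on another chromosome, so which of them gave this signal is uncertain. Psme3, which codes for PA28 gamma of the nucleus, differed by -0.23 ± 0.20, and Psme4, which codes for PA200, by -0.25 ± 0.18 (SE, limma unadjusted p = 0.295 and 0.22).

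The proteasome genes were then set beside genes of equal brightness. They are bright: 30 of the 36 tested lay in the brightest quintile of all tested genes and 5 in the next. Over all genes, the median log2 difference went from 0.17 in the dimmest quintile through 0.14, 0.04 and -0.10 to -0.23 in the brightest. The 30 members in the brightest quintile had a median of -0.24. In the band between the 25th and 75th percentile of the members' own mean signal, 2.30 to 3.75, there were 1390 other genes. Their median was -0.24, the same as that of the members, 87.6% of them were below 0 against 83.3% of the members, and 14.5% were called lower against 5.56% of the members. The middle 50% of the band, by its 25th and 75th percentiles, ran from -0.35 to -0.11, and that of the members from -0.30 to -0.10.

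**Figure D2:**
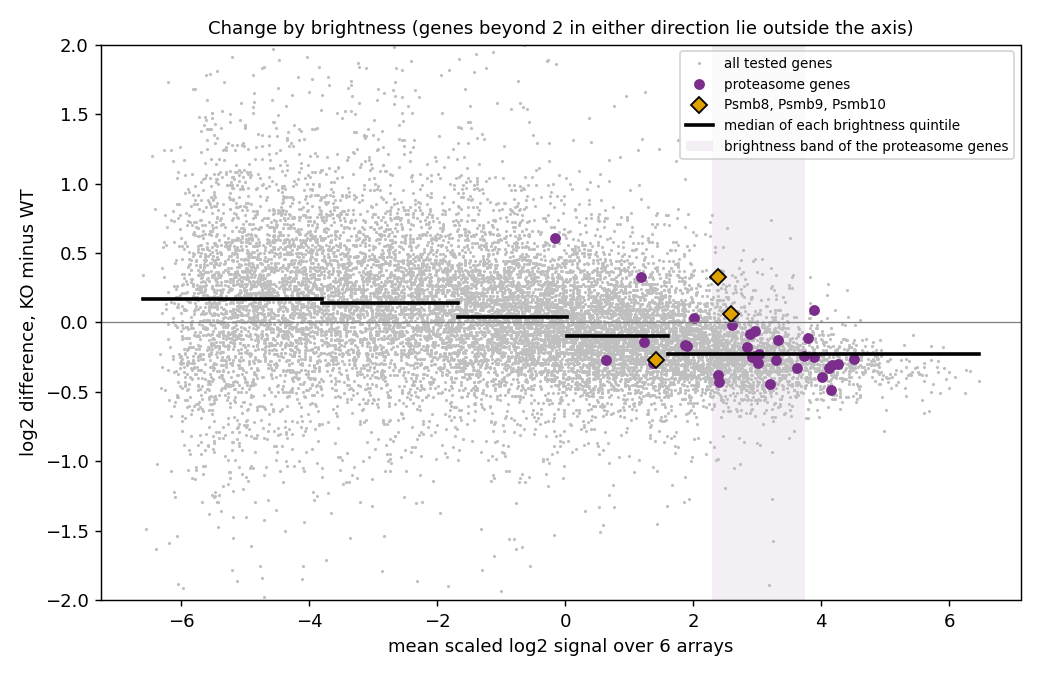
Log2 difference between KO and WT against the mean scaled log2 signal over 6 arrays for 14711 tested genes (grey), with the 36 tested proteasome genes in purple and the 3 immunoproteasome subunits as diamonds. Black lines are the medians of the brightness quintiles, falling from 0.17 to -0.23, and most proteasome genes lie around the last of them.

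The arrays contributed unequally to this difference. Over all spots, marked or not, the median deviation of the 48 members from their own 6-array means was -0.01, 0.31 and 0.10 in WT 1 to WT 3 and -0.16, -0.23 and 0.03 in KO 1 to KO 3. The 1776 genes of equal brightness gave 0.03, 0.25, 0.11, -0.18, -0.23 and 0.05 in the same order. KO 3 lay above WT 1 by both measures, so the groups overlapped. WT 2 was the highest array for 33 of 48 members (68.8%) and for 60.2% of the genes of equal brightness, against 32.4% of all genes. KO 2 was the lowest for 30 members (62.5%) and for 52.4% of the genes of equal brightness. All 3 KO arrays lay below all 3 WT arrays for 9 of 48 members, where 17.1% of all genes did so, and above them for none, against 11.6%. Without WT 2 the median of the members was -0.12, over 22 genes, and no member was called. Within the second row of the slide, the mean of the KO mice minus WT 3 had a median of -0.22 over the 48 members and of -0.23 over the genes of equal brightness.

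**Figure D3:**
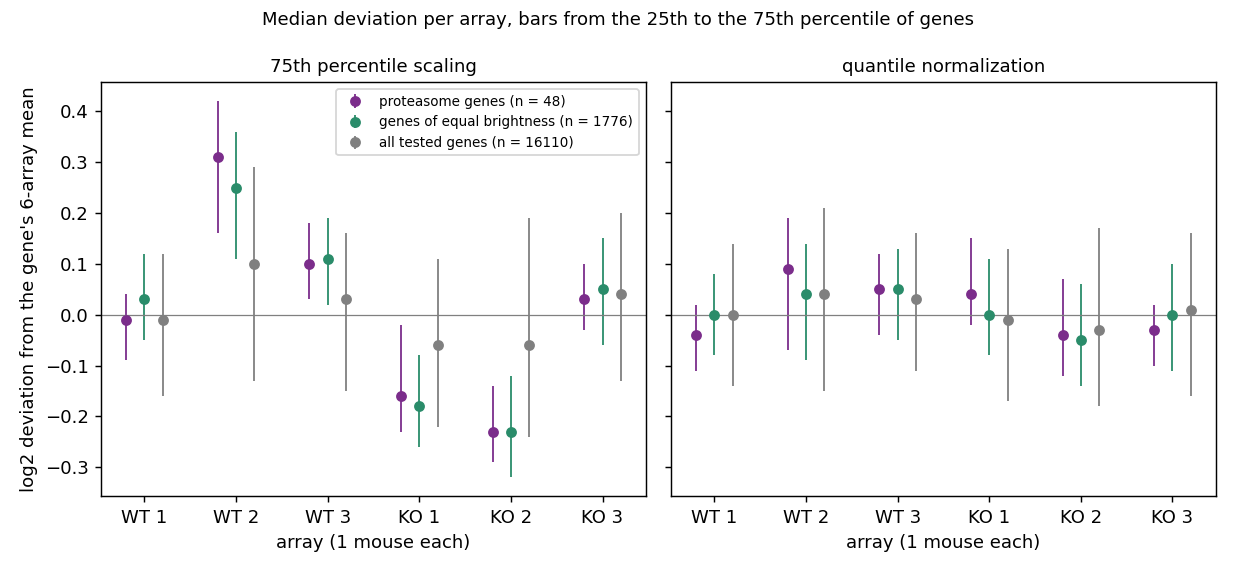
Median log2 deviation from each gene's 6-array mean on each array, for 48 proteasome genes, 1776 genes of equal brightness and 16110 tested genes, with bars from the 25th to the 75th percentile of genes. Under scaling to the 75th percentile (left), proteasome genes and genes of equal brightness move together from 0.31 and 0.25 in WT 2 to -0.23 in KO 2, and under quantile normalization (right) all medians lie between -0.05 and 0.09.

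Quantile normalization, which gives every array the same distribution of values, ended most of the difference. The median of the 36 tested members was then -0.04, with 24 below 0, and that of the genes of equal brightness -0.05. None was called lower, against 10.2% of all genes, and Psmd4 was called higher (2.78%, against 7.95% of all genes), with a difference of 0.32 ± 0.12 (SE, limma unadjusted p = 0.04091, adjusted p = 0.253). It then read 3.83, 3.55 and 3.84 in WT and 4.07, 3.99 and 4.11 in KO, without overlap. With marked spots kept and quantile normalization, Psmd9 alone of 48 members was called lower, against 10.5% of all genes, and Psmd4 alone higher, against 8.13%. The median difference thus depended on the scaling, and in this last setting 28 of 48 were below 0.

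**Figure D4:**
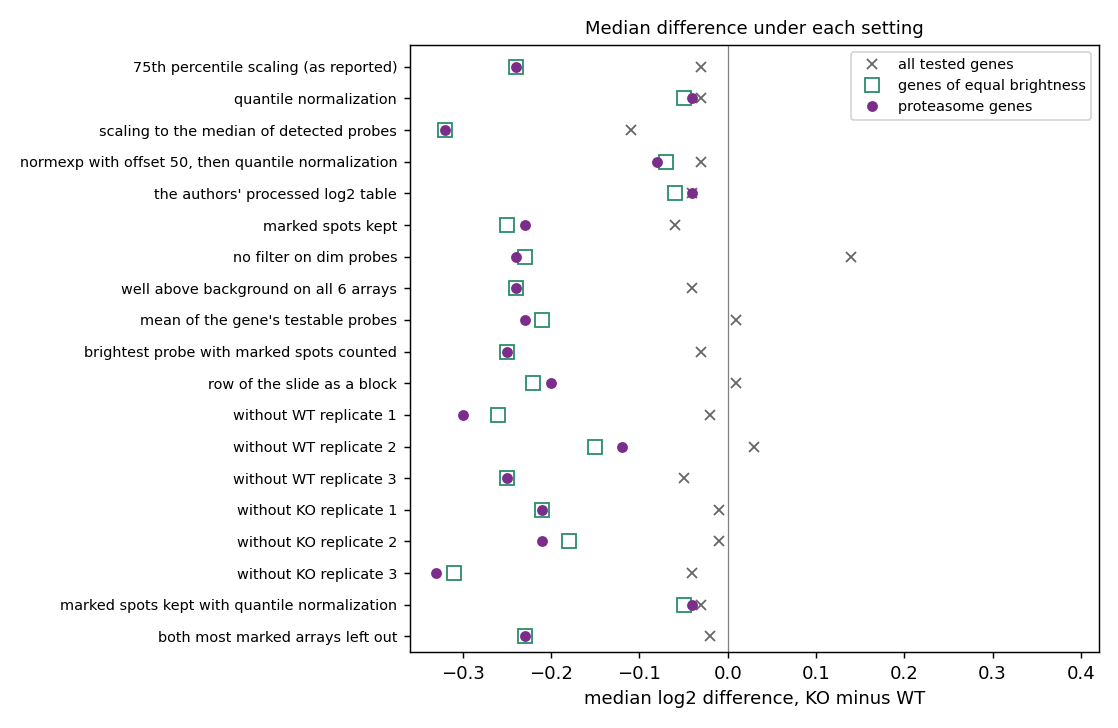
Median log2 difference between KO and WT under each setting, for the proteasome genes (purple), the genes of equal brightness in that setting (green squares) and all tested genes (crosses). The purple and green symbols stay close to each other in each setting, with the purple ones between -0.33 without KO 3 and -0.04 with quantile normalization.

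The brightest probes of the 3 constitutive catalytic subunits had lower means in KO under both scalings, while only Psmb9 of the 3 inducible subunits did. With marked spots kept, Psmb5, the chymotrypsin-like subunit, read 3.73, 4.27 and 3.96 in WT and 3.56, 3.37 and 3.70 in KO. All KO values lay below all WT values, and it fell by 0.45 ± 0.18 on the log2 scale (SE, limma unadjusted p = 0.04306, adjusted p = 0.23). Of its 6 spots 4 were marked, which left it untested in the fit without them. Psmb7, the trypsin-like subunit on chromosome 2, read 2.47, 2.77 and 2.60 in WT and 2.27, 2.08 and 2.29 in KO, again without overlap. It fell by 0.40 ± 0.14 with marked spots kept (SE, limma unadjusted p = 0.02612, adjusted p = 0.193), and the difference was -0.43 ± 0.21 without the marked spots of WT 3 and KO 1 (limma unadjusted p = 0.0925). With marked spots kept and quantile normalization, the differences of Psmb5, Psmb6 and Psmb7 were -0.19, -0.12 and -0.24, and none was past the threshold.

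Psmb8, the inducible counterpart of Psmb5 on chromosome 17 from 34198195 to 34201454, read 1.74, 2.72 and 2.36 in WT and 2.27, 2.56 and 2.55 in KO, with the spots of WT 3 and KO 1 marked. The WT mice held both the lowest and the highest value. The difference was 0.33 ± 0.36 (SE, limma unadjusted p = 0.401), and 0.19 with marked spots kept. Psmb9, the counterpart of Psmb6, read 1.06, 2.02 and 1.59 in WT and 1.06, 1.54 and 1.24 in KO, without a marked spot, and differed by -0.27 ± 0.26 (SE, limma unadjusted p = 0.338). Psmb10, the counterpart of Psmb7 on chromosome 8, read 2.32, 2.79 and 2.58 in WT and 2.46, 2.57 and 2.82 in KO, with WT 3 marked, and differed by 0.06 ± 0.21 (SE, limma unadjusted p = 0.788). WT 1 was the lowest or level with the lowest array for these 3 genes.

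Within each array, the log2 signal of the constitutive subunit was subtracted from that of its inducible counterpart, and the result was centred on the WT mean. This removes any factor that scales both alike. It need not remove a shift that depends on brightness where the probes of a pair differ in brightness. For Psmb8 minus Psmb5, with marked spots kept, the values were -0.28, 0.16 and 0.12 in WT and 0.43, 0.91 and 0.57 in KO. All 3 KO mice lay above all 3 WT mice, with a change of 0.63 and SDs of 0.24 in WT and 0.25 in KO. Only WT 1 (-0.28) and KO 2 (0.91) had both spots unmarked. The separation and the SDs of this pair thus rest on marked spots, and no change is given without them. For Psmb10 minus Psmb7 they were -0.10, 0.06 and 0.03 in WT and 0.24, 0.54 and 0.58 in KO, a change of 0.45 with SDs of 0.09 and 0.19, again without overlap. For Psmb9 minus Psmb6 they were -0.31, 0.20 and 0.12 in WT and -0.03, 0.54 and -0.14 in KO, a change of 0.12 with overlap. How often pairs of other genes separate the groups in this way is not given. The two-sided exact permutation p over 3 mice against 3 for Psmb8, Psmb10 and Psmb9 in this order was 0.10, 0.10 and 0.70, or 0.15, 0.15 and 0.70 after adjustment over the 3 pairs, and 0.10 is the smallest p this design allows. Under quantile normalization of the same spots, the changes were 0.55, 0.46 and -0.05 for Psmb8 minus Psmb5, Psmb10 minus Psmb7 and Psmb9 minus Psmb6, so the last pair changed sign. Without the marked spots, Psmb10 minus Psmb7 changed by 0.57 over 2 mice against 2, where the exact permutation test cannot go below 0.33, and Psmb9 minus Psmb6 by -0.03. Within the second row of the slide, the KO mean minus WT 3 was 0.52 for Psmb8 minus Psmb5, 0.42 for Psmb10 minus Psmb7 and 0.01 for Psmb9 minus Psmb6, with marked spots kept.

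**Figure D5:**
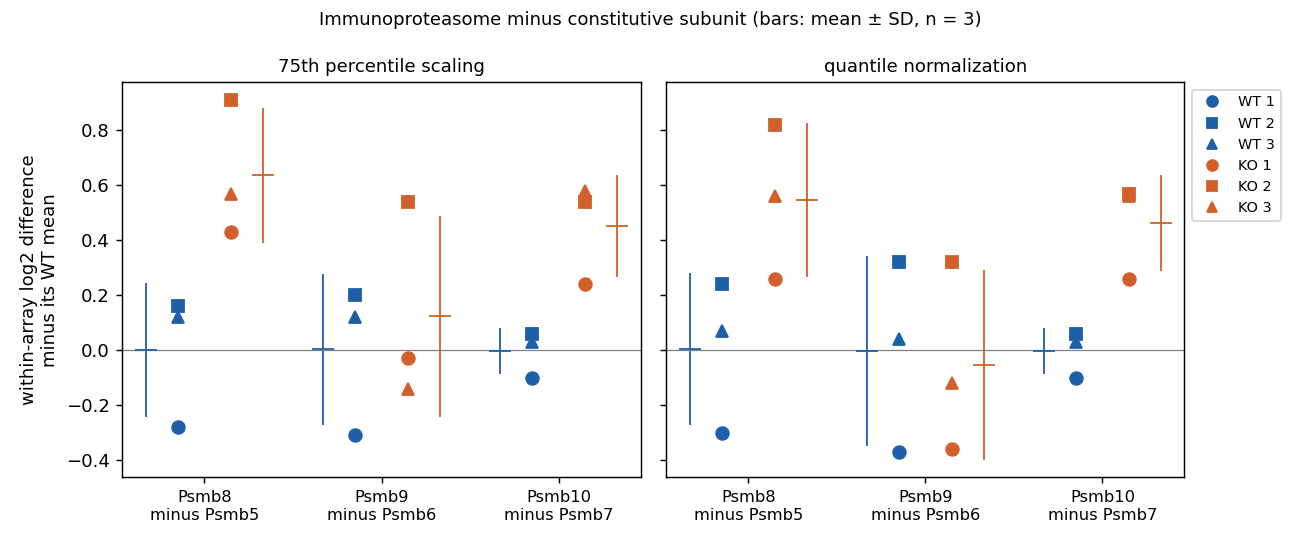
Within-array log2 difference of each inducible subunit and its constitutive counterpart, centred on the WT mean, for 6 mice with marked spots kept, with the mean ± SD of each group (n = 3) as bars. KO mice (orange) lie above WT mice (blue) for Psmb8 minus Psmb5 and Psmb10 minus Psmb7 under both scalings, and the groups overlap for Psmb9 minus Psmb6.

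The genes that work with the proteasome were read from the same fit. Among 13 tested partners of 16 listed, none was called and the median was -0.18. Once marked spots were kept, Txnl1, a thioredoxin bound to the cap, fell by 0.51 on the log2 scale (limma unadjusted p = 0.0105, adjusted p = 0.141). Pomp, which matures the 20S core, differed by -0.39 ± 0.19 (SE, limma unadjusted p = 0.0724), reading 3.48, 3.82 and 3.58 in WT and 3.06, 3.09 and 3.55 in KO. The deubiquitinases of the cap, Uchl5 and Usp14, differed by -0.13 and -0.18. Adrm1, the ubiquitin receptor that holds Uchl5, differed by 0.42 through its testable probe and by -0.19 through a brighter probe with marked spots kept. Of 9 genes of the Nfe2l1 pathway 6 were tested and none was called, with a median of -0.17. Nfe2l1 itself differed by 0.22 ± 0.16 through a dim probe (SE, limma unadjusted p = 0.224), by 0.12 through a brighter probe with marked spots kept, and by 0.01 with the slide row as a block.

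Of 6 genes that supply or activate ubiquitin, 5 were tested and 1 was called. Rps27a, which codes for ubiquitin fused to a ribosomal protein, was higher in KO by 0.57 ± 0.18 through a dim probe (SE, limma unadjusted p = 0.0165, adjusted p = 0.177), reading -4.71, -4.27 and -4.23 in WT and -3.63, -3.92 and -3.93 in KO. Its brightest probe, which needs marked spots to be kept, gave -0.28, so no direction can be given for this gene. The median of the 5 was -0.22. In the fit with marked spots, the polyubiquitin gene Ubb fell by 0.52 on the log2 scale (limma unadjusted p = 0.033, adjusted p = 0.209).

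Of 11 genes of MHC class I antigen processing, 8 were tested, with a median of -0.20. H2-K1, a class I heavy chain, fell by 0.53 ± 0.18 on the log2 scale (SE, limma unadjusted p = 0.0245, adjusted p = 0.205), from 4.69, 5.03 and 4.58 in WT to 4.10, 4.12 and 4.50 in KO, without overlap. Its call was lost without WT 2, KO 1 or KO 2, where the differences were -0.40, -0.46 and -0.47, and with the slide row as a block (-0.34). Under quantile normalization the difference was -0.27, still past the threshold. B2m, the class I light chain, differed by -0.17 with marked spots kept. Tap2, a chain of the peptide transporter, differed by -0.25 ± 0.15, and Tap1, its partner, by 0.43 ± 0.26 (SE, limma unadjusted p = 0.134 and 0.146). Tap1 and Psmb9 lie side by side on chromosome 17 with 225 bases between them, and their differences, 0.43 and -0.27, had opposite signs with neither past the threshold.

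Of 20 interferon-stimulated genes, 18 were tested, 6 were below 0 and the median was 0.25, while Irf1, a transcription factor induced by interferon, differed by -0.07. Ifit3, Oas1a, Oasl2 and Rsad2, antiviral effectors of the type I response, rose by 0.78, 0.49, 0.79 and 0.59 at unadjusted p of 0.0117, 0.0147, 0.0122 and 0.00927 by limma, with adjusted p of 0.145 to 0.169. Rsad2 read 0.73, 1.14 and 1.14 in WT and 1.48, 1.69 and 1.61 in KO. By brightness, Ifit3, Oas1a and Oasl2 lay in the quintile where the median of all genes was 0.14. Rsad2 lay in a brighter quintile, with a median of -0.10. No interferon-stimulated gene was called lower, and 10% of all genes were called higher. With the slide row as a block, Ifit3, Oas1a and Rsad2 differed by 0.79, 0.58 and 0.45 and were past the threshold no longer. Oas1a also lost its call without WT 3 (0.45), and Oasl2 with normexp (0.45).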

How the data were processed

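Cy3-labelled RNA from whole BAT of 6 mice was hybridised to 6 Agilent mouse arrays (V2). Per the file headers, the deposited files hold spot intensity from Agilent Feature Extraction 11.5.1.1 (the submitters' processing notes name 10.7), corrected for background and not scaled between arrays. The authors also deposited a processed log2 table of 27497 probes, whose normalization is not given in the sources used here. Its columns have medians of 8.823 to 8.847 and a shared maximum, and rose by 0.969 to 1.04 per log2 unit of their own array's signal, so the scale is log2 and the direction is settled.

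Each array was scaled to the 75th percentile of its non-control spots before taking log2. Marked spots were left out. Probes had to be well above background on at least 3 of 6 arrays with at least 2 unmarked values per group, and the brightest such probe stood for its gene. Probes were matched to RefSeq genes of GRCm38.p6 by accession (33767 of 56605 probes, 23462 genes). Groups, taken from the labels, were compared over 14711 genes with lmFit and eBayes of limma 3.58.1 (R 4.3.3), two-sided, at an unadjusted p under 0.05 and with Benjamini-Hochberg adjustment. The fit was tested on simulated data. The subunit pairs were compared with an exact permutation test. The number of arrays limits the precision. That the mice were separate animals comes from the labels, and p-values measure the spread between these 6 samples only. No replicate numbers pair the mice.

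The members, their roles, the pathway and marker lists and the rule for named genes (every member and listed gene with an unadjusted p under 0.05, the catalytic subunits, activators and inhibitor, untested members by name, and 10 pathway genes) were chosen with earlier results of these data known. Other members, such as Psma5, Psmc5, Psmd4, Psmd9, Psmd14 and Psmg3, and the listed genes Txnl1, Ubb and Ppargc1a, were named after their values were seen. Some listed genes are not reported here. Alternatives were other scalings, background correction, filters, probe choices, tests, the slide row as a block, and leaving out arrays. Keeping marked spots under quantile normalization, leaving out each array with marked spots kept, and leaving out both most marked arrays were added after the data were seen.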

Additional observations from a re-analysis of the deposited data

How the results depend on the processing

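The count of members called lower in KO, 2, was 0 with quantile normalization, with normexp followed by it, without a filter on dim probes, with SAM, with the slide row as a block, without both most marked arrays and with a change of at least 1.5-fold as well. It was 1 with the authors' processed log2 table, the mean of a gene's probes, the methods' t-test, and quantile normalization of all spots, and 5 with marked spots kept. Leaving out each array gave 0 to 3, or 0 to 9 with marked spots kept (8 without WT 1), where the share of all genes is not given. The share of all genes called lower moved as well, from 8.82% to 10.2% with quantile normalization and 8.54% with normexp. It was 4.22% without the filter, 6.19% with SAM, 2.41% with the row as a block and 4.44% without both most marked arrays. Others gave 11.8% (authors' table), 7.96% (mean of probes) and 9.35% (t-test). It was 10.5% with quantile normalization of all spots, 11.1% with marked spots kept and 5.6% to 10.3% with each array left out. The count called higher, 0, was 1 under quantile normalization, normexp, the authors' table and quantile normalization of all spots. Of all genes, 7.95%, 6.95%, 8.52% and 8.13% were called higher there, against 10% in the main fit. Under these 4 settings the median of the members was -0.04, -0.08, -0.04 and -0.04, in place of -0.24. The change of Psmb9 minus Psmb6, -0.03, was 0.01 within the slide row, 0.12 with marked spots kept, 0.04 with the mean of probes, 0.13 without both most marked arrays, and -0.24 to 0.13 with each array left out. It was -0.21 with quantile normalization and -0.21 with normexp. That of Psmb10 minus Psmb7, 0.57, was 0.48 with normexp, 0.45 with marked spots kept and 0.46 with quantile normalization of all spots. That of Psmb8 minus Psmb5, 0.63 with marked spots kept, ranged from 0.49 to 0.74 with each array left out. Differences also changed sign for Psmb6 without WT 2 (0.03; range without each array -0.60 to 0.03), Psmb10 with scaling to the median (-0.01) and without KO 3 (-0.04; range -0.04 to 0.14), and Irf1 within the slide row (0.00) and without WT 2 (0.01; range -0.11 to 0.01). Under quantile normalization, normexp and quantile normalization of all spots, Psme1 gave 0.10, 0.02 and 0.06 and Uchl5 0.09, 0.15 and 0.08. Usp14 gave 0.02 with the authors' table and 0.02 with quantile normalization of all spots, where B2m gave 0.13 and Adrm1 -0.02. With marked spots kept, Adrm1 gave -0.19 and Rps27a -0.28, through other probes. Of the values of single genes under the alternatives, 419 kept direction and side of the threshold, 46 lost a call, 4 gained one and 17 changed sign. Apart from the probes used and the members tested, the causes were not tested. No paired analysis was possible because the labels do not pair WT with KO mice, and equal numbers, such as WT 1 and KO 1, mark no pair. Psma8 and Psmb11 did not pass the filter on dim probes, so no difference is given for them.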
